A study of Saccharomyces cerevisiae with 32 samples.

Results

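The N-terminal CRIPT library is a combinatorial set of peptide ligands in which residues 1 to 4 of the 8 residues of the CRIPT tail were replaced alone and together, while the last residues, QTSV, stayed as in wild type. Its members were all amino acid sequences of the deposited table for this library, 91815 of the 470640 sequences scored in the series. They comprised the wild-type sequence, 76894 sequences with 1 to 4 substitutions and no stop codon, and 14920 sequences with a stop codon among positions 1 to 4. Substitutions were counted against wild type, with position 1 at the first listed residue. In the numbering of PDZ ligands that sets the C-terminal residue to 0, positions 1, 2, 3 and 4 are -7, -6, -5 and -4.

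The series scored binding between CRIPT and PDZ3, a PDZ domain of PSD95, a scaffold protein of synapses, through growth of the laboratory yeast strain BY4741 in methotrexate. In the protein complementation assay behind such data, fragments of a methotrexate-resistant dihydrofolate reductase are fused to the binding partners and restore growth when the partners meet, so growth depends on the amount of each fusion protein as well as on binding. For this library there were 3 input samples, grown for 5 generations at 30 °C without methotrexate, and 3 output samples, grown for about 5 generations with 200 µg/mL methotrexate. The labels name each set of 3 as biological replicates of 1 transformed library, and they name no variant of PDZ3 in it.

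The authors deposited 1 fitness score and 1 error per amino acid sequence, with replicates and codons already merged. The values after ± are those authors' errors, on the scale of the score. Their kind, the log base and the read depth are unknown, so the replicate spread cannot be shown. Wild type scored -0.0412 ± 0.0552, and the median of the sequences with a stop was -0.807, which gives the score a working range of 0.766 between them. A score nearer to wild type stands for faster growth in methotrexate.

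PDZ domains are protein modules that hold the extreme C terminus of a partner in a groove, where the terminal carboxylate and the side chains of the last few residues make the main contacts. Residues further upstream reach past the groove and are known to tune affinity and the choice between related PDZ domains. CRIPT is a natural ligand of PDZ3, and its tail has basic residues at positions 1 and 4, an asparagine at position 2 and an aromatic residue at position 3. These are the residues varied here.

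The following peptides mark the ends of the range. They are wild type and, among sequences with an error no larger than the median of their class, the highest-scoring and the lowest-scoring sequences with 2, 3 and 4 changes.
wild type: KNYKQTSV
highest with 2 changes: GKYKQTSV
highest with 3 changes: KRWRQTSV
highest with 4 changes: RVWRQTSV
lowest with 2 changes: YNYGQTSV
lowest with 3 changes: DNLGQTSV
lowest with 4 changes: WWEGQTSV

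The high peptides kept lysine or took arginine at position 4 and had an aromatic residue at position 3. The low peptides all had glycine at position 4. All sequences with glycine there had a median error of 0.0460, against 0.0815 with tryptophan and 0.0973 with aspartate. The limit on the error thus keeps a larger share of those with glycine. Median scores were lower with tryptophan and aspartate there, at -0.673 and -0.642, than with glycine, at -0.620. RVWRQTSV, in which none of the varied residues is the wild-type one, scored 0.0344 ± 0.0181. WWEGQTSV scored -0.916 ± 0.0535, below the median of the stop sequences but not past the test against it at an adjusted p under 0.05. RVWRQTSV differed from wild type by 0.0757 ± 0.0581 and GKYKQTSV by 0.0873 ± 0.0771, neither past the test. The errors rest on 3 replicates, so the normal p-values are approximate. They are used only to place a value on a side of the threshold and are not printed for single sequences.

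The first question was how growth declined as residues were replaced. The library held 34 of 76 possible single changes (44.7%), 947 of 2166 double changes (43.7%), 12337 of 27436 triple changes (45.0%) and 63576 of 130321 quadruple changes (48.8%). The median score was -0.0817 for single changes, -0.208 for double, -0.381 for triple and -0.520 for quadruple changes. Each added change thus went with a lower median, and the quartiles of the quadruple changes, -0.631 and -0.401, still lay above the stop level.

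Against wild type, 7 of 34 single changes (20.6%) scored lower at an adjusted p under 0.05 (two-sided normal test with the authors' errors, Benjamini-Hochberg over the table). The share was 46.6% of double, 76.1% of triple and 93.2% of quadruple changes, beside 90.8% of all sequences other than wild type, those with stops included. Most combinations of 3 or 4 replaced residues were therefore measurably slower than wild type. The scores of 449 sequences were at or above wild type, but 0 were called higher, whether p was adjusted or not. The wild-type error of 0.0552 enters each of these tests, so small gains could not be called.

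Against the stop level, 78.0% of the sequences without a stop scored higher at an adjusted p under 0.05. All 34 single changes did so, as did 881 double changes (93.0%), 10789 triple changes (87.5%) and 48245 quadruple changes (75.9%). Growth above the stop level thus remained measurable in most sequences in which positions 1 to 4 were all replaced. The same test called 610 of the 14920 stop sequences (4.09%) above their own median, which is its rate of calls at the floor. By the plain criterion of a score above -0.508, which 2.5% of the stop sequences exceed, the share of quadruple changes was 47.2%.

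The C-terminal CRIPT library, in which positions 5 to 8 were replaced in the same way, is set beside this without a test, since it is a separate experiment with its own stop level of -1.001. There 66.2% of single, 27.3% of double, 6.79% of triple and 1.99% of quadruple changes were above the stop level. Quadruple changes had a median of -1.03 in that library.

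The score also depended on which residue was kept. Among triple changes, the 3230 that kept K4 had a median of -0.186, and 56.2% of them were not lower than wild type. The median was -0.406 with K1 kept, -0.430 with Y3 kept and -0.492 with N2 kept, and the shares not lower than wild type were 15.3%, 14.3% and 8.82%. The same order of K4 before the others held for double changes. Those that kept Y3 and K4 had a median of -0.0830, and 172 of 180 (95.6%) were not lower than wild type. Those that kept N2 and Y3 had a median of -0.407, and 32 of 210 (15.2%) were not lower. Not being lower by the test does not place a sequence at the wild-type level: scores of triple changes not called reached down to -1.05 where the error was large.

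A fit with 1 term per residue and position gave the share of the variance that goes with each position. Position 4 alone gave an R² of 0.485, position 3 0.139, position 1 0.0590 and position 2 0.0445, and the fit with all 4 positions gave 0.723. Taking position 4 out of that fit lowered R² by 0.482.

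Residue effects were then measured in matched backgrounds: the score with a given residue minus the score with the wild-type residue, the other 3 varied positions being identical. Effects are given as means with the SD over backgrounds, which share sequences and are not replicates, so no p-value is attached. Position 4 had a mean effect of -0.312 (SD 0.159, 43682 pairs), position 1 of -0.100 (SD 0.127, 39291 pairs), position 3 of -0.0874 (SD 0.148, 42362 pairs) and position 2 of -0.0247 (SD 0.129, 47001 pairs).

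The mean effects were also split by the number of other residues replaced. At position 4 they were -0.314, -0.309 and -0.313 with 1, 2 and 3 other changes, at position 1 -0.0931, -0.0921 and -0.101, and at position 2 -0.0207, -0.0152 and -0.0260. At position 3 they went from -0.128 with 1 other change to -0.0979 with 2 and -0.0855 with 3. Over the 34 single changes listed, the single score minus wild type correlated with the mean matched effect (Pearson's r 0.922, Spearman's rho 0.927, across substitutions that share the wild-type value). The single value was the higher one for 27 of the 34, with a median difference of 0.0701, against a wild-type error of 0.0552 that all 34 share.

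At position 4, on average over matched backgrounds, lysine could be replaced by arginine with little loss and by no other residue without a clear one. K4R averaged -0.0182 (SD 0.0789, 3455 backgrounds), with the sequence holding arginine lower in 65.0% of backgrounds. The next residues were glutamine, with K4Q at -0.194 (SD 0.0995), and leucine, with K4L at -0.256 (SD 0.100). Histidine, which is only partly charged near neutral pH, averaged -0.259 (SD 0.108), close to leucine and methionine and far from arginine. The lowest means were those of tryptophan, with K4W at -0.478 (SD 0.131), aspartate, with K4D at -0.460 (SD 0.141), and glycine, with K4G at -0.425 (SD 0.122). At each of the 18 residues other than arginine, the substituted sequence was lower in at least 97.6% of backgrounds.

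Of the single changes at position 4, KNYRQTSV scored -0.0147 ± 0.0423 and KNYGQTSV -0.484 ± 0.0600, the highest and the lowest of the 11 listed. K4G minus wild type was -0.442 ± 0.0815 and passed the test, and 6 of the 11 single changes at this position were lower than wild type by it, against 1 of 23 at positions 1 to 3 together. Besides K4R, those not called were K4H, K4Q, K4T and K4M. Minus wild type they were -0.0576 ± 0.135, -0.0984 ± 0.0925, -0.146 ± 0.0904 and -0.164 ± 0.0932. Within quadruple changes, the 5699 sequences with arginine at position 4 had a median of -0.209, those with glutamine -0.380 and those with tryptophan -0.679. Of the quadruple changes with arginine there, 36.6% were not lower than wild type, beside 10.7% with glutamine and 1.13% with glycine. Such shares vary with the error too, whose median was 0.0450 with glycine and 0.0809 with tryptophan. With tryptophan 2.77% were not lower, although its median score was below the -0.626 of glycine.

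At position 3, where wild type has tyrosine, acidic residues had the lowest means over all backgrounds and arginine, tryptophan and histidine the highest. Y3E averaged -0.247 (SD 0.167, 1888 backgrounds) and Y3D -0.242 (SD 0.177, 1420 backgrounds), against -0.125 for Y3L and Y3Q, the next lowest. Y3R averaged 0.0424 (SD 0.116, 2945 backgrounds), with the arginine sequence the higher one in most backgrounds, 36.4% being lower. Y3W averaged 0.0115 (SD 0.117) and Y3H 0.00861 (SD 0.119), both far smaller than their spread. Y3H turned to -0.00331 in the better-measured 50% of sequences, and Y3W to -0.00217 over backgrounds whose partner was above the stop level. The order at the top depended on position 4: with lysine there, arginine at position 3 had a mean score of -0.0895, below tryptophan at -0.0631 and tyrosine at -0.0829. With arginine there it had -0.152, below tyrosine, which was highest at -0.105, and below tryptophan, phenylalanine and histidine. Aliphatic residues averaged -0.112 and the polar residues S, T, N and Q -0.115. Among single changes, KNFKQTSV was highest at 0.0314 ± 0.0535 and KNNKQTSV lowest at -0.257 ± 0.0492, the only one of the 7 listed at this position that was lower than wild type by the test.

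At position 2, asparagine was the least needed of the wild-type residues, and basic residues averaged above it. N2K averaged 0.0739 (SD 0.117, 2230 backgrounds), with lysine lower in 21.0% of backgrounds, and N2R 0.0397 (SD 0.112, 3166 backgrounds), with arginine lower in 34.6%. N2T followed at 0.00583 (SD 0.115), and was -0.0138 over backgrounds whose partner was above the stop level. The lowest means were N2D at -0.0889 (SD 0.136), N2W at -0.0858 (SD 0.132) and N2Y at -0.0807 (SD 0.126). None of the 7 single changes listed at position 2 was lower than wild type. KRYKQTSV scored highest of all single changes, at 0.0553 ± 0.0395, and was not past the test against wild type. KQYKQTSV was the lowest of the 7 at -0.0738 ± 0.0808.

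At position 1, lysine gave the highest mean and large aromatic residues the lowest. K1R averaged -0.0256 (SD 0.105, 2481 backgrounds), K1T -0.0577 (SD 0.111) and K1G and K1C -0.0684 each (SD 0.109 and 0.126). The lowest means were K1W at -0.190 (SD 0.140), K1F at -0.162 (SD 0.129) and K1D at -0.160 (SD 0.134). The single changes TNYKQTSV, at -0.00409 ± 0.0662, and YNYKQTSV, at -0.104 ± 0.0492, were the highest and the lowest of the 9 listed at this position, and none of the 9 was lower than wild type by the test.

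Mean effects of residue classes differed along the peptide, each taken against the wild-type residue of its own position. Aromatic residues averaged -0.165 at position 1, -0.0741 at position 2 and -0.423 at position 4, but -0.00483 at position 3. At position 3 wild type is itself aromatic, so that mean sets phenylalanine and tryptophan against tyrosine. Acidic residues averaged -0.152, -0.0722, -0.245 and -0.409 from position 1 to 4. Basic residues averaged -0.0256, 0.0538, 0.0125 and -0.0182. At positions 1 and 4 this is arginine in place of lysine, 1 basic residue for another. The means of this class therefore do not rank the positions by the effect of a basic residue. The value at position 3 joins 2 residues of opposite sign, Y3R at 0.0424 and Y3K at -0.0278, with lysine lower in 62.4% of 2178 backgrounds. Proline, which restricts the backbone, averaged -0.0858, -0.0135, -0.0829 and -0.282, less negative than alanine at position 4, where K4A averaged -0.346. Sequences with 0, 1, 2 and 3 prolines had medians of -0.504, -0.486, -0.457 and -0.435. These sets were not matched for their other residues. The medians therefore do not give the effect of proline against the wild-type residue, whose matched mean was negative at each position.

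The next question was which wild-type residue restores most within sequences in which all 4 positions are replaced. Each quadruple change was compared with the triple change that differs from it by 1 restored residue. A pair counts as raised or lowered here if its difference passed an adjusted p under 0.05 (two-sided normal test with the authors' errors, Benjamini-Hochberg over all pairs). Restoring K4 raised the score in 26742 of 38248 pairs (69.9%) and lowered it in 16, against 27.4% raised and 0.665% lowered over the pairs of all 4 positions. Restoring K1 raised it in 6282 of 34671 pairs (18.1%), Y3 in 6431 of 36459 (17.6%) and N2 in 1913 of 41397 (4.62%). Without regard to the test, the restored triple had the higher score in 96.6% of pairs for K4, 82.1% for K1, 73.7% for Y3 and 59.9% for N2. The mean gain was 0.313 for K4, 0.101 for K1, 0.0855 for Y3 and 0.0260 for N2.

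These shares depend on the size of the errors. With every error multiplied by 1.296, the SD of the stop sequences' deviations in units of their errors, they were 7.02% for K1, 1.13% for N2 and 7.96% for Y3. K4 came first and N2 last at a threshold of 0.01, with the lower 50% of errors and with the scaled errors, while K1 and Y3 changed places in all of these.

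Restoring the wild-type residue was not always a gain. By the same test, where position 2 held lysine or arginine, restoring asparagine raised the score in 24 of 4715 pairs and lowered it in 250 (5.30%). Where position 3 held arginine, restoring tyrosine raised it in 45 of 2512 pairs and lowered it in 183 (7.29%), while for lysine there it was raised in 116 of 1867 pairs and lowered in 42. Where position 3 held an acidic residue, restoring tyrosine raised it in 1189 of 2862 pairs (41.5%). Where position 4 held glycine, restoring lysine raised it in 2726 of 3032 pairs (89.9%), the largest share of any residue class at any position, and where it held arginine, in 59 of 3007 (1.96%). The share also depends on the error, whose median was 0.0702 for the glycine pairs and 0.0979 for aromatic residues. The mean gain was not largest for glycine. It was 0.420 there, beside 0.422 for aromatic residues, 0.476 for tryptophan and 0.458 for aspartate.

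For 12252 quadruple changes all 4 of their restored triples were listed. K4 gave the largest gain in 9891 of them (80.7%), Y3 in 1559 (12.7%), K1 in 635 (5.18%) and N2 in 167 (1.36%). Among the 1980 that carried arginine at position 4 the leading position was 3: Y3 gave the largest gain in 65.1% and K1 in 22.3%, with mean gains of 0.117 and 0.0675. With arginine at position 4, where restoring K4 had a mean gain of 0.0187, tyrosine at position 3 was thus the residue whose return most often gained most. No test enters these counts.

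Quadruple changes that scored at or above wild type numbered 126, and 78 of these had an error no larger than the class median. All 78 had arginine at position 4, beside 8.96% of all quadruple changes. An aromatic residue, phenylalanine or tryptophan, stood at position 3 in 57 of the 78 (73.1%), beside 9.27% of all, and a basic residue at position 2 in 48 (61.5%), beside 11.7% of all. Acidic residues at positions 1, 3 and 4 were absent from the 78. Quadruple changes with arginine at position 4 had a median error of 0.0353, against 0.0618 for the class, so the limit on the error favours them. Without that limit, 110 of the 126 (87.3%) had arginine at position 4. An aromatic residue stood at position 3 in 80 (63.5%) and a basic one at position 2 in 64 (50.8%). An acidic residue stood at position 1 in 3 of the 126. These sequences were selected by their score, so the shares describe them and test nothing. Members of the set are shown with their scores to let the shared residues be read off.
RVWRQTSV: 0.0344
SKWRQTSV: 0.0309
RKFRQTSV: 0.0284

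The triple changes KRWRQTSV, at 0.0364 ± 0.0448, CKYRQTSV, at 0.0352 ± 0.0490, and RSWKQTSV, at 0.0319 ± 0.0374, likewise have an aromatic residue at position 3 and a basic one at position 4. The double changes GKYKQTSV, at 0.0460 ± 0.0538, RNYRQTSV, at 0.0278 ± 0.0394, and KRYRQTSV, at 0.0238 ± 0.0390, keep Y3. At the other end, YNYGQTSV scored -0.769 ± 0.0473, DNYGQTSV -0.757 ± 0.0549 and ENYGQTSV -0.663 ± 0.0396. With only 2 changes, the first 2 of these were already not past the test against the stop level. YFYGQTSV at -0.786 ± 0.0525, YNDVQTSV at -0.770 ± 0.0430, EWLGQTSV at -0.870 ± 0.0616 and WREAQTSV at -0.858 ± 0.0423 were likewise at the floor.

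Net charge of positions 1 to 4, with K and R counted as +1 and D and E as -1, went with the score over its whole range. The median was -0.697 at a net charge of -3, -0.683 at -2, -0.621 at -1, -0.530 at 0, -0.362 at +1, -0.203 at +2, -0.120 at +3 and -0.0632 at +4. The 13 sequences with 4 basic residues lay between -0.130 and 0.0667, and the 4 with 4 acidic residues between -0.963 and -0.627. Wild type has a net charge of +2.

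The place of the charge mattered as well. Sequences with a single basic residue and no acidic one had medians of -0.437, -0.439, -0.415 and -0.196 with that residue at position 1, 2, 3 and 4, beside -0.537 with no charged residue. A basic residue at position 4 thus went with a larger shift than one elsewhere. A single acidic residue gave -0.599, -0.592, -0.697 and -0.611 in the same order, lowest at position 3. The difference between net charges of +2 and -2 was 0.480 in the median over positions 1 to 4 and 0.332 with the charge counted over positions 1 to 3 alone.

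Within each class of residue at position 4 the charge of positions 1 to 3 still ran the same way. With a basic residue at position 4 the median went from -0.473 at a charge of -2 to -0.198 at 0 and -0.101 at +2. With an aliphatic residue it went from -0.686 to -0.508 and -0.306 at the same charges. With glycine at position 4 the lower end was nearly flat, -0.663 at -2, -0.660 at -1 and -0.633 at 0, and the median at +2 was -0.500. Sequences with 0, 1, 2 and 3 tryptophans among positions 1 to 4 had medians of -0.487, -0.585, -0.693 and -0.796. Counted over positions 1 to 3 alone with K or R at position 4, medians were closer together, at -0.191, -0.207 and -0.215 with 0, 1 and 2 tryptophans, against -0.525, -0.571 and -0.634 with another residue there.

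Residue pairs were then compared with the additive fit, to ask where the effect of a residue depends on its neighbours. A pair's deviation is the mean residual of all sequences that hold both residues. Of 2354 residue pairs with at least 50 sequences, 430 (18.3%) deviated at an adjusted p under 0.05 (two-sided normal test with propagated errors). Adjacent positions 3 and 4 had the largest share, 151 of 390 pairs (38.7%), followed by positions 1 and 3 with 95 of 399 (23.8%). The other position pairs had between 10.5% and 14.1%. With errors multiplied by 1.296 the total was 250, and in the better-measured 50% of sequences it was 686 pairs.

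The largest deviation was that of tyrosine at position 1 with glycine at position 3. The 220 sequences with Y1 and G3 averaged -0.393, which is 0.150 ± 0.00642 above the additive fit and past the threshold, and 210 of them were above their own expected value. W1 with G3 deviated by 0.112 ± 0.00585 over 258 sequences. Tyrosine and tryptophan at position 1 were among the worst residues there in general, yet with glycine at position 3 the matched effect of K1Y was 0.0461 (SD 0.116, 150 backgrounds), against -0.179 (SD 0.121, 263 backgrounds) with an aromatic residue there. For K1W the same 2 means were -0.0404 and -0.270. Glycine ranked first of the 20 residues at position 3 by mean score when position 1 was Y or W, and between rank 6 and rank 16 with each other residue at position 1.

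The mean deviation of Y1 with G3 was positive with every class of residue at position 4. It was 0.109 with a basic residue there (26 sequences), 0.185 with an aliphatic one (68 sequences) and 0.349 with proline (9 sequences). The lowest means were 0.0310 with histidine (SD 0.259, 5 sequences) and 0.0818 with an aromatic residue (29 sequences). So few sequences do not settle the sign for histidine. The 9 sequences that hold Y1, G3 and P4 are shown with their scores because none has a basic residue at position 4 and all lie far above the fit. They were picked out after their values had been seen.
YRGPQTSV: -0.0800
YTGPQTSV: -0.0942
YNGPQTSV: -0.151
YAGPQTSV: -0.160
YGGPQTSV: -0.161
YVGPQTSV: -0.189
YDGPQTSV: -0.190
YLGPQTSV: -0.227
YFGPQTSV: -0.288

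Their errors lay between 0.0396 and 0.107, and their median was -0.161. The 172 sequences with Y1 and P4 but another residue at position 3 had a median of -0.541, the 242 with G3 and P4 but another residue at position 1 had -0.406, and the 211 with Y1 and G3 but another residue at position 4 had -0.422. The 13 sequences with W1, G3 and P4 had a median of -0.411 and the 9 with F1, G3 and P4 had -0.384, both lower than with Y1. Their highest scores, -0.260 and -0.263, overlapped the range of the sequences with Y1, whose lowest was -0.288. Their mean deviations from the fit were 0.151 and 0.113.

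Between positions 3 and 4 the largest deviations involved acidic or aromatic residues at position 3. E3 with G4 deviated by 0.127 ± 0.00427 over 365 sequences and D3 with G4 by 0.122 ± 0.00606 over 290, and these fell to 0.0724 and 0.0689 after a monotonic curve had been fitted to the additive sum. D3 with D4 deviated by 0.0918 ± 0.0249 over 51 sequences, and its 0.0219 after the curve was not past the threshold. In matched backgrounds the effect of Y3E was -0.343 (SD 0.101, 339 backgrounds) with a basic residue at position 4 and -0.0556 (SD 0.127, 284 backgrounds) with glycine there. The mean score with Y3 was -0.0970 in the first backgrounds and -0.605 in the second, beside a stop median of -0.807. Whether the smaller effect with glycine goes back to the nearness of the stop level was not tested.

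The 5 largest negative deviations involved tryptophan, phenylalanine or aspartate at position 3. D3 with K4 deviated by -0.0910 ± 0.0106 over 103 sequences, so an aspartate next to the wild-type lysine scored below the sum of both terms. W3 with W4 deviated by -0.116 ± 0.0143 over 131 sequences, W2 with W3 by -0.114 ± 0.0117 over 84, F3 with G4 by -0.0903 ± 0.00568 over 319 and W3 with G4 by -0.0807 ± 0.00432 over 363. The deviation of W3 with G4 was 0.0186 (SD 0.0851, 36 sequences) where position 1 held a basic residue. With each other class at position 1 it lay between -0.109 and -0.0576. With lysine at position 4, tryptophan was the highest of the 20 residues at position 3, with a mean score of -0.0631. With tryptophan at position 4 it ranked 17th at -0.703, while arginine ranked first there at -0.572.

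Single effects were also added up to ask how far they carry. For 250 double, 1481 triple and 3179 quadruple changes all single changes were listed. The observed score lay below the sum of single effects in 82.0%, 84.7% and 91.1% of them, with a median deviation of -0.0700, -0.114 and -0.167. None of the 4910 was called at an adjusted p under 0.05 (0% called), and 38 were without adjustment. The wild-type score enters each sum, so a wild-type value that is too low or too high moves all deviations together, and the median combined error was 0.120, 0.167 and 0.217. The direction of the shift therefore cannot be told apart from the error of that 1 value. In the pairwise CRIPT library, a separate experiment, wild type scored higher, at 0.0314 ± 0.0140.

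Finally, single and double changes at positions 1 to 4 were also scored in the pairwise CRIPT library, an experiment of its own. All 34 single and 933 of the 947 double changes were shared. Across these sequences, which share residues, Pearson's r was 0.931 for single and 0.871 for double changes (Spearman's rho 0.926 and 0.893). Both tables regress onto the CRIPT variants of the PDZ3-CRIPT table with a slope of 1 and an intercept of 0, over 36 and 154 variants, in the first of the listings that table holds. In its second listing the slopes were 1.09 and 0.943. The levels of both tables are thus tied to the first listing, so the comparison bears on the order of the scores and not on their level. Shared single and double changes scored higher here by a median of 0.0109 and 0.0254. Wild type, which is not among them, scored lower here, at -0.0412 ± 0.0552, than there, at 0.0314 ± 0.0140. Why was not tested. Of the 967 shared sequences, 2 (0.207%) differed at an adjusted p under 0.05, and 76 at an unadjusted p under 0.05. GNYRQTSV scored -1.01 ± 0.217 here and -0.0382 ± 0.0225 there, and it was the lowest of all double changes here, with a large error. LNYSQTSV scored -0.274 ± 0.0426 here and -0.528 ± 0.0270 there.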

How the data were processed

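The deposited table lists, for each amino acid sequence, a fitness score and an error computed by the authors from input and output amplicon reads; per the submitters' processing notes cutadapt and FastQC were used. Version, log base, count filter and kind of error are not given in the sources used here. The score has no unit, and depth per sample is unknown.

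Tests were two-sided normal tests with the authors' errors, adjusted by the Benjamini-Hochberg method over the whole table, all matched pairs or all residue pairs, with a threshold of 0.05. They cover the authors' error only. The additive fit was least squares with a ridge penalty of 1. Scripts used Python 3.11.15, numpy 2.4.6, pandas 2.3.3, scipy 1.17.1 and scikit-learn 1.9.0, and were tested on simulated data. Named sequences were wild type, the highest and lowest single change per position, and the 3 highest and 3 lowest with 2, 3 and 4 changes among errors up to the class median. Named residues were the 3 highest and 3 lowest by mean matched effect per position, and named pairs the 5 largest deviations in each direction. Residues and sequences outside this rule were named after their values had been seen. The members, lists and tests were chosen with earlier results of these data known. Alternatives were a threshold of 0.01, the 50% of sequences with the lower errors, other references for wild type and stop, medians or weighted means, a curve, 100 sequences per pair, other charge counts and, added after seeing the data, errors multiplied by 1.296.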

Additional observations from a re-analysis of the deposited data

How the results depend on the processing

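A value without a test is called unchanged here if it moved by less than 0.0612, the median error of 1 score, and a count or share if it moved by at most 1.5 times. Of 252 values recomputed for 74 results, 213 were unchanged. With the lower 50% of errors, which keeps 18.1% of the stop sequences, 41887 sequences scored below wild type, the restored share was 31.7% for K1, 9.47% for N2 and 33.4% for Y3, residue pairs off the fit numbered 686, with shares of 33.0% for positions 1 and 2, 50.8% for 1 and 3, 25.3% for 1 and 4, 33.0% for 2 and 3 and 30.9% for 2 and 4, and 1 of 511 sequences differed from the pairwise library. The drop in R² without position 4 was 0.642 there, a setting added after seeing the data. At an adjusted p under 0.01 the restored share was 9.76% for K1, 1.84% for N2 and 10.4% for Y3, and the pair shares were 6.14% for positions 1 and 2, 6.39% for 1 and 4, 8.84% for 2 and 3 and 5.94% for 2 and 4. With errors multiplied by 1.296 the restored shares were 7.02%, 1.13% and 7.96%, and 250 pairs were off the fit, with shares of 4.86% for positions 1 and 2, 15.5% for 1 and 3, 5.12% for 1 and 4, 6.57% for 2 and 3 and 4.65% for 2 and 4. Compared with 0, 38.2% of single changes were lower. By the criterion that 2.5% of stop sequences exceed, 39901 sequences, and 47.2% of quadruple changes, were above the stop level. Means weighted by error were -0.315 for triple and -0.436 for quadruple changes. With the charge counted over positions 1 to 3 the difference was 0.332. Some matched effects near 0 changed sign: Y3H was -0.00331 with the lower 50% of errors, and where the partner was above the stop level N2T was -0.0138, Y3H -0.00928 and Y3W -0.00217. D3 with D4 was not past the threshold after the curve, at 0.0219. Why these values moved was not tested.

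No paired analysis was possible because the deposited scores are merged over replicates and no column carries a replicate number, and no replicate was left out for the same reason. The authors' errors are the only measure of precision, and the spread of the stop sequences exceeds them, by the factor of 1.296 used above. The test against their own median called 610 stop sequences above it and 1 below. Calls were thus almost all on the upper side, so the factor need not hold for all errors. The filter on the error keeps few stop sequences, so it also selects on the score. Only 44.7% of the single changes are listed, and tests against wild type all share 1 value with an error of 0.0552.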
